A study of Homo sapiens with 4 samples.

Results

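The alternative NF-kB pathway genes described here are MAP3K14, NFKB2, RELB, TRAF2, TRAF3, BIRC2, BIRC3, CHUK, CD40 and LTBR, 10 genes named by symbol. Every probe set that the platform annotation assigns to one of these symbols was taken, which gave 17 probe sets of 8 genes among 49386 probe sets on the array. None of the 17 was shared with a second symbol. Expression of TRAF2 and BIRC3 is not analysed here, as this rule found no probe set for them.

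RNA came from 4 cultures of 2 human mantle cell lymphoma cell lines, a B-cell malignancy marked by high cyclin D1. The groups were REC-1 with CC-292 for 48 h, REC-1 control labelled 48 h, Z138 with CC-292 for 48 h, and Z138 control, whose label gives no time, with 1 array per group. CC-292 inhibits BTK, the kinase that passes the signal of the B-cell receptor on. The protocol text gives its dose as 1 uM and the sample titles as 1 mM. Each group is a single culture, and the labels used here give no genotype or NF-kB mutational status for either line.

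In the alternative pathway, receptors such as CD40, the lymphotoxin-beta receptor (LTBR) and the BAFF receptor stabilise the kinase NIK, the product of MAP3K14. In resting cells a complex of TRAF2, TRAF3 and the ubiquitin ligases cIAP1 (BIRC2) and cIAP2 (BIRC3) holds NIK low by marking it for degradation. When this complex is disrupted, NIK activates IKK-alpha (CHUK), which drives the processing of p100, the product of NFKB2, to p52, and p52 enters the nucleus with RelB. Much of this control acts on protein amount and processing, which RNA arrays do not measure. NFKB2, RELB and BIRC3 are themselves known NF-kB target genes.

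Values are log2 probe-set signals, so that a difference of 1 is a 2-fold difference. A probe set counted as measured if its highest value over the 4 arrays reached 4.63, the median of all values, which 27763 probe sets did. Of the 17 member probe sets, 15 were measured, at least 1 for each of the 8 genes. Because each group is 1 array, differences within a line and between the control arrays have no test. The spread that can be given is that between the probe sets of 1 gene, pooled as an SD over 6762 genes, which was 0.31 for CC-292 in REC-1, 0.25 for CC-292 in Z138 and 0.48 between the control arrays. It holds no error between cultures. The level of one probe set cannot be set against that of another as an amount of RNA.

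Array medians were 4.63 to 4.64, and the 23 nonspecific control probe sets, which differ in GC content, had medians of 3.06 to 3.12 and highest values of 6.43 to 7.09. CCND1 lay between 11.83 and 11.95 on all 4 arrays, and all 5 B-cell markers with a probe set (CD79A, CD79B, MS4A1, PAX5 and CD22) were measured on every array, while CD5 was not measured. Of 10 T, NK and myeloid markers, 3 were measured (CD3D, CD3G and NCAM1), with a highest value of 6.07. The plasma-cell marker SDC1 stood at 3.54 and 3.61 on the CC-292 and control arrays of REC-1, against 8.89 and 8.48 on those of Z138. For ACTB the 3' probe set exceeded the 5' one, a measure that grows as RNA degrades, by 0.53 and 0.77 on the CC-292 and control arrays of REC-1, against 1.11 and 1.12 on those of Z138. For GAPDH the same measure was nearly equal in the lines, at -0.31 and -0.32 in REC-1 and -0.24 and -0.28 in Z138.

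The largest contrasts among the members concerned MAP3K14 and NFKB2, and the sequences upstream of their annotated starts are shown for that reason. They come from RefSeq (GRCh38.p14), cover the 250 bases before a start, 5′ to 3′ on the gene's strand, and stand in lower case with each match to the motif GGGNNTTNCC, one form of the NF-kB site, in capitals. Both strands were searched, and matches may overlap. NFKB2 has 3 annotated starts, and starts 2 and 3 are printed because they hold matches. The NFKB2 windows lie on the plus strand at chr10:102394328-102394577 and chr10:102395455-102395704, and the MAP3K14 window on the minus strand at chr17:45317021-45317270.
NFKB2, start 2: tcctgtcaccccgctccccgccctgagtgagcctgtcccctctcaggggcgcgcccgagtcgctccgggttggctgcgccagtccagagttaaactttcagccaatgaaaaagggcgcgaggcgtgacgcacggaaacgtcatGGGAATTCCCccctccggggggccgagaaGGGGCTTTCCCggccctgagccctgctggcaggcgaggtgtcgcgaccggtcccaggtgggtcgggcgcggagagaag
NFKB2, start 3: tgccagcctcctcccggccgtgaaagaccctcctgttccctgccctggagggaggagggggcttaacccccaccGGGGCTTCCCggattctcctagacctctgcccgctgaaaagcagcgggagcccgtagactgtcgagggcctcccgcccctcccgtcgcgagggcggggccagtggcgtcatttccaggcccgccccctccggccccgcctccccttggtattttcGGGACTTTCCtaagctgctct
MAP3K14: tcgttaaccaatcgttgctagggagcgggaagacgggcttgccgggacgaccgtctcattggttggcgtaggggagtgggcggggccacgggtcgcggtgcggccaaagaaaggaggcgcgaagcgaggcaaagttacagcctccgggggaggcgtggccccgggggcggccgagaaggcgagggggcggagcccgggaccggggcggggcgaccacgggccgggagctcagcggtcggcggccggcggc
The window of NFKB2 start 2 holds 3 matches, 2 of which overlap by all but 1 base, and that of start 3 holds 2, the nearer of which begins 21 bases before the start. NFKB2 start 1 and MAP3K14 hold none. Of 35116 such windows of all genes, 5.07% hold at least 1 match and 0.282% at least 2. Windows were available for 8 member genes, TRAF2 and BIRC3 among them. RELB and CD40 had no window and were not searched. Among the 11 windows of these 8 genes, 4 hold a match, those of NFKB2 (2), BIRC3 and TRAF3. A match describes these letters and not binding, which was not measured.

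**Figure D1:**
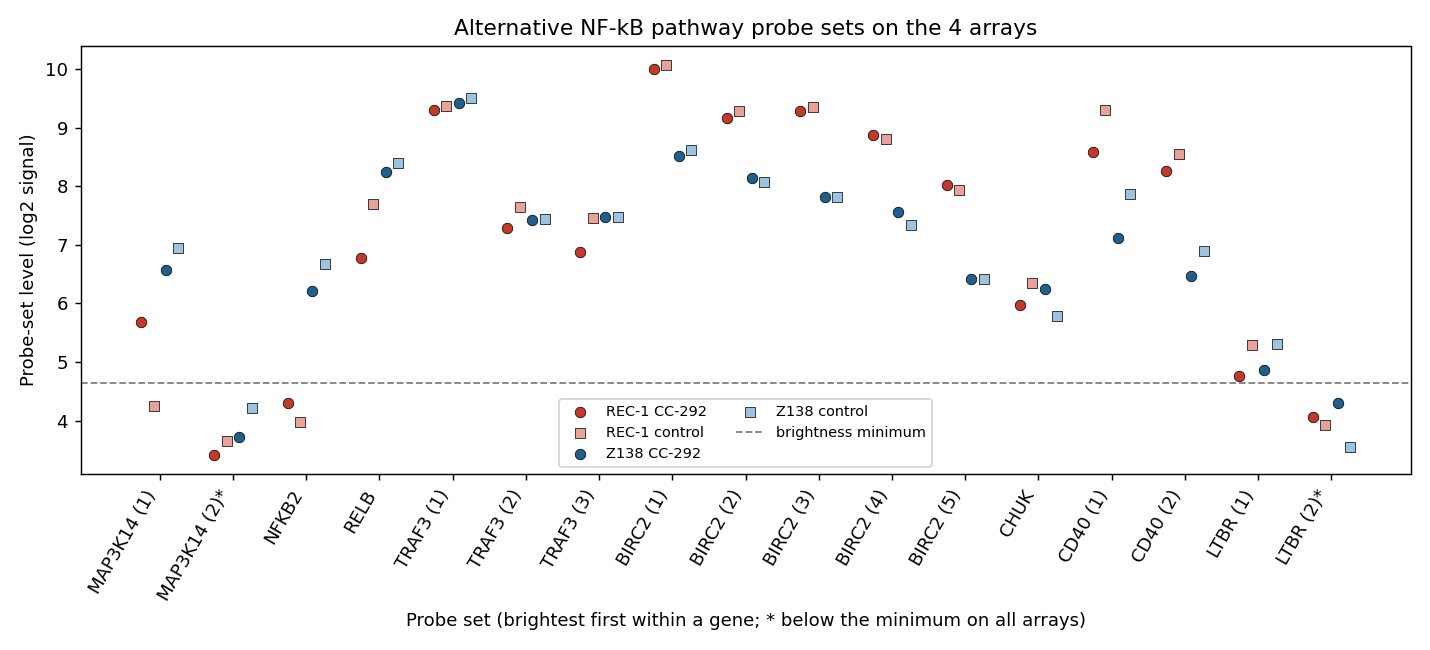
Log2 signal of each of the 17 member probe sets on the 4 arrays (circles CC-292, squares control, red REC-1, blue Z138; the dashed line is the brightness minimum of 4.63). NFKB2 and the brightest MAP3K14 probe set are lower in REC-1, while all 5 BIRC2 and both CD40 probe sets are higher in REC-1.

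MAP3K14, which encodes the NIK kinase at the head of the pathway, had the only member probe set that differed 2-fold with CC-292. Levels are per culture, and fewer expressing cells cannot be told apart from less RNA per cell. Its brightest probe set read 5.68 on the CC-292 array and 4.25 on the control array of REC-1. In Z138 it read 6.57 with CC-292 and 6.94 in the control. The REC-1 control was thus the lowest of the 4 arrays and the only one below the brightness minimum, and both Z138 arrays lay above both REC-1 arrays. In REC-1 the CC-292 array read 2.69-fold higher (log2 difference 1.43). As the control reading lies below the brightness minimum, and both readings below the highest nonspecific control probe set of their array (6.60 with CC-292 and 7.09 in the control), the size of this fold is uncertain. In Z138 the CC-292 array was 1.29-fold lower (-0.37). The difference between these differences, 1.80, was untested, and 4.50% of all measured probe sets differed by 1 or more in this way. MAP3K14 was the only measured member probe set to do so.

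The second MAP3K14 probe set did not repeat this. It read 3.42 with CC-292 and 3.65 in the control of REC-1, against 3.72 and 4.21 in Z138, below the brightness minimum on all 4 arrays, with a CC-292 difference of -0.23 in REC-1 and -0.48 in Z138. The higher reading of MAP3K14 in REC-1 after CC-292 therefore rests on 1 probe set. On the mean of both probe sets no member gene of REC-1 reached a 2-fold difference. The antisense gene MAP3K14-AS1, which has its own probe set, read 5.42 with CC-292 and 5.67 in the control of REC-1, and 5.69 and 6.08 in Z138, and was thus lower with CC-292 in both lines (-0.26 and -0.39).

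Among 10853 other genes, the 5 whose brightest probe set came closest to that of MAP3K14 over the REC-1, Z138 and control-line differences were CBX7, NUMBL, RGPD4, DMXL2 and AIFM2. Their Euclidean distances were 0.52 to 0.60 on the log2 scale. With 3 differences from 4 arrays this is a description of these arrays.

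NFKB2 encodes p100, the precursor of p52. Its single probe set read 4.30 with CC-292 and 3.98 in the control of REC-1, against 6.21 with CC-292 and 6.68 in the control of Z138. Both REC-1 arrays lay below the brightness minimum, and both Z138 arrays lay above it. CC-292 differed from control by 0.33 in REC-1 and by -0.47 in Z138, beside pooled SDs between probe sets of 0.31 and 0.25, and no direction can be read from the dim REC-1 pair.

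RELB encodes the partner of p52. It read 6.77 with CC-292 and 7.69 in the control of REC-1, against 8.24 and 8.39 in Z138. Its difference in REC-1, -0.92 or 1.89-fold lower, was below that of all but 1.16% of measured probe sets, while in Z138 it was -0.15. Both REC-1 arrays lay below both Z138 arrays.

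Of the brake on NIK, TRAF3 and BIRC2 were measured. TRAF3, the adaptor that brings NIK to the ubiquitin ligases, has 3 probe sets, and these differed among themselves in REC-1. The brightest read 9.30 with CC-292 and 9.37 in the control of REC-1, and 9.41 and 9.50 in Z138. The second read 7.28 and 7.65 in REC-1, and 7.43 and 7.44 in Z138. The third read 6.88 and 7.46 in REC-1, and 7.47 and 7.47 in Z138. The REC-1 differences were therefore -0.07, -0.37 and -0.58 (mean -0.34, SD 0.26 over 3 probe sets), whereas those in Z138 were all near 0 (mean -0.03, SD 0.05). The third probe set had a single low array, REC-1 with CC-292.

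BIRC2 encodes cIAP1, a ubiquitin ligase of the complex. Its 5 probe sets differed little with CC-292 in either line and were all higher in REC-1. The brightest read 10.01 with CC-292 and 10.06 in the control of REC-1, against 8.51 and 8.61 in Z138. Over the 5 probe sets the CC-292 difference averaged -0.02 in REC-1 (SD 0.09, range -0.12 to 0.09) and 0.04 in Z138 (SD 0.12, range -0.11 to 0.21). On each of them both REC-1 arrays lay above both Z138 arrays.

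CHUK encodes IKK-alpha, the kinase that NIK activates. Its single probe set read 5.98 with CC-292 and 6.34 in the control of REC-1, against 6.25 and 5.78 in Z138. The differences were -0.36 in REC-1 and 0.47 in Z138, and the ranges of the 2 lines overlapped. Each reading lay below the highest nonspecific control probe set of its array, so that the size of these differences is uncertain.

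Of the receptors, CD40, the costimulatory receptor through which T cells activate B cells, was lower with CC-292 on both of its probe sets in both lines. The brighter read 8.59 with CC-292 and 9.31 in the control of REC-1, and 7.12 and 7.87 in Z138. The other read 8.25 and 8.55 in REC-1, and 6.46 and 6.89 in Z138. The difference averaged -0.51 in REC-1 (SD 0.29 over 2 probe sets) and -0.59 in Z138 (SD 0.23). Each line kept its order, with both REC-1 arrays above both Z138 arrays on each probe set.

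LTBR, the receptor for lymphotoxin, was dim. Its brighter probe set read 4.77 with CC-292 and 5.30 in the control of REC-1, and 4.87 and 5.31 in Z138, which gave differences of -0.53 and -0.44. The control arrays of both lines were higher than the CC-292 arrays. Its second probe set was not measured and ran the other way, with 4.05 and 3.93 in REC-1 and 4.30 and 3.54 in Z138.

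**Figure D2:**
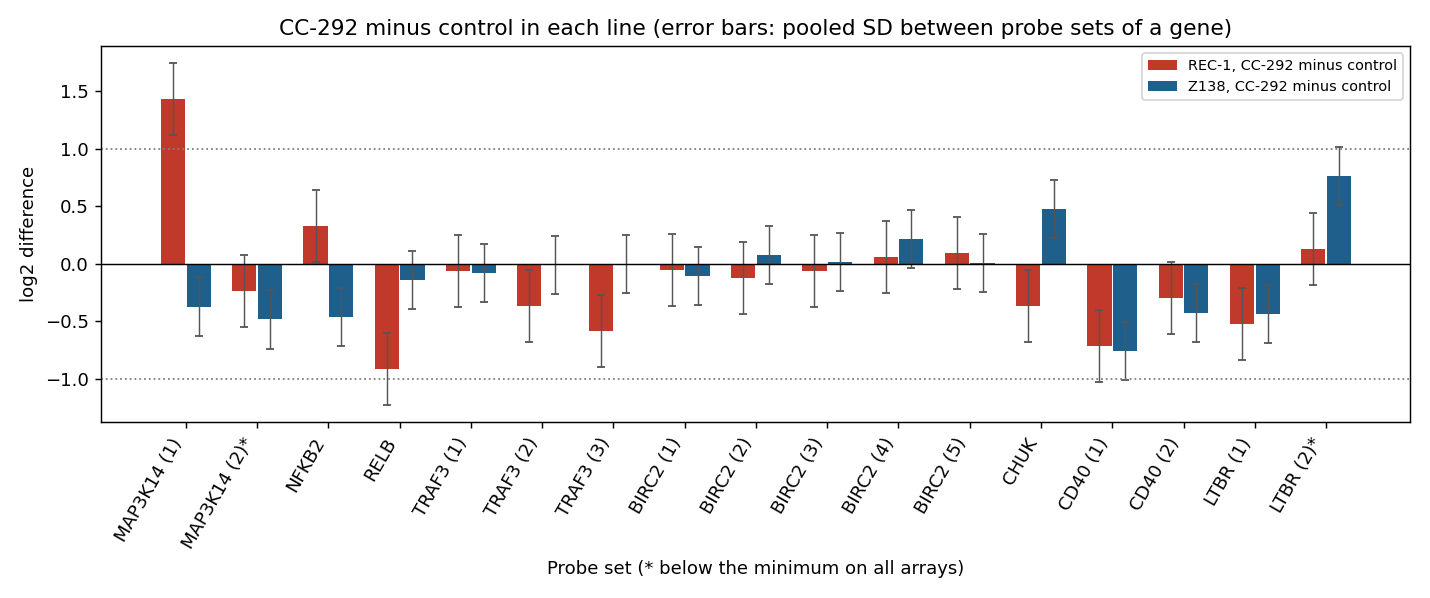
CC-292 minus control on the log2 scale for each member probe set in REC-1 (red) and Z138 (blue), with the SD pooled over genes with several probe sets as error bars (0.31 and 0.25) and dotted lines at a 2-fold difference. Only MAP3K14 (1) in REC-1 passes a dotted line, and both CD40 probe sets lie below 0 in both lines.

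By count, 1 of 15 measured member probe sets (MAP3K14) differed at least 2-fold with CC-292 in REC-1, where 1.84% of all measured probe sets did. None of 15 did so in Z138, where 0.580% of all did. Member probe sets were below 0 in 11 of 15 cases in REC-1 (55.0% of all probe sets) and in 10 of 15 in Z138 (46.7% of all), with medians of -0.12 and -0.08, beside medians of -0.03 and 0.02 over all measured probe sets. Probe sets of 1 gene are not independent, and BIRC2 alone gives 5 of the 15.

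The CC-292 effect averaged over REC-1 and Z138 was fitted with limma across all 27763 measured probe sets, with the line as a covariate, so that the 2 lines served as replicates. No member was called after Benjamini-Hochberg adjustment, and 0% of all probe sets were. At an unadjusted p under 0.05, 2 of 15 member probe sets and 4.18% of all probe sets passed. The brighter CD40 probe set was 1.66-fold lower (log2 -0.73, SE 0.16, unadjusted p = 0.0057, adjusted p = 0.9999 by limma), lower in 2 of 2 lines. The LTBR probe set was at -0.48 (SE 0.16, unadjusted p = 0.029, adjusted p = 0.9999 by limma), also lower in 2 of 2 lines. MAP3K14, whose lines ran in opposite directions, averaged 0.53 (SE 0.43, adjusted p = 0.9999 by limma) and RELB -0.53 (SE 0.23, adjusted p = 0.9999 by limma). In data simulated for this comparison on 27763 probe sets, 1 of 100 probe sets changed 2-fold and 92 of 100 changed 4-fold were recovered, with 6 false calls, so that an effect of the size seen for CD40 would seldom be detectable by this test.

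The lines themselves differed more than the treatments did. Between the control arrays, 9 of 15 member probe sets differed at least 2-fold, beside 23.3% of all measured probe sets. Of these, 7 were higher in REC-1, the 5 of BIRC2 and the 2 of CD40, and 2 were lower, those of MAP3K14 and NFKB2. MAP3K14 was 6.47-fold lower in the REC-1 control than in the Z138 control (log2 -2.69) and NFKB2 6.49-fold lower (-2.70). As both readings in the REC-1 control lie below the brightness minimum, the size of these folds is uncertain. NFKB2 was also measured through Z138 alone, which favours a line difference. BIRC2 was higher by 1.44 as the mean of 5 probe sets (SD 0.13) and CD40 by 1.55 as the mean of 2 (SD 0.16). RELB was at -0.70, CHUK at 0.56, TRAF3 at 0.02 (SD 0.17 over 3 probe sets) and LTBR at -0.01.

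Among the CC-292 arrays the order of the lines was kept for MAP3K14, NFKB2, RELB, BIRC2 and CD40, but the gaps were not the same. The REC-1 minus Z138 difference of MAP3K14 was -0.89 with CC-292 and -2.69 in the controls. That of NFKB2 was -1.91 with CC-292 and -2.70 in the controls, and that of RELB was -1.47 with CC-292 and -0.70 in the controls. For BIRC2 it averaged 1.38 with CC-292 (SD 0.23 over 5 probe sets) and 1.44 in the controls (SD 0.13), and for CD40 1.63 with CC-292 (SD 0.22 over 2 probe sets) and 1.55 in the controls (SD 0.16). CHUK changed sign, with -0.27 with CC-292 and 0.56 in the controls, on 1 probe set that read below the highest nonspecific control probe set of each array. The mean of TRAF3 was -0.28 with CC-292 (SD 0.27 over 3 probe sets) and 0.02 in the controls (SD 0.17). As the control mean lies near 0, no change of sign is read from it. The brightest TRAF3 probe set was at -0.11 with CC-292 and -0.13 in the controls. LTBR was at -0.10 with CC-292 and -0.01 in the controls.

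**Figure D3:**
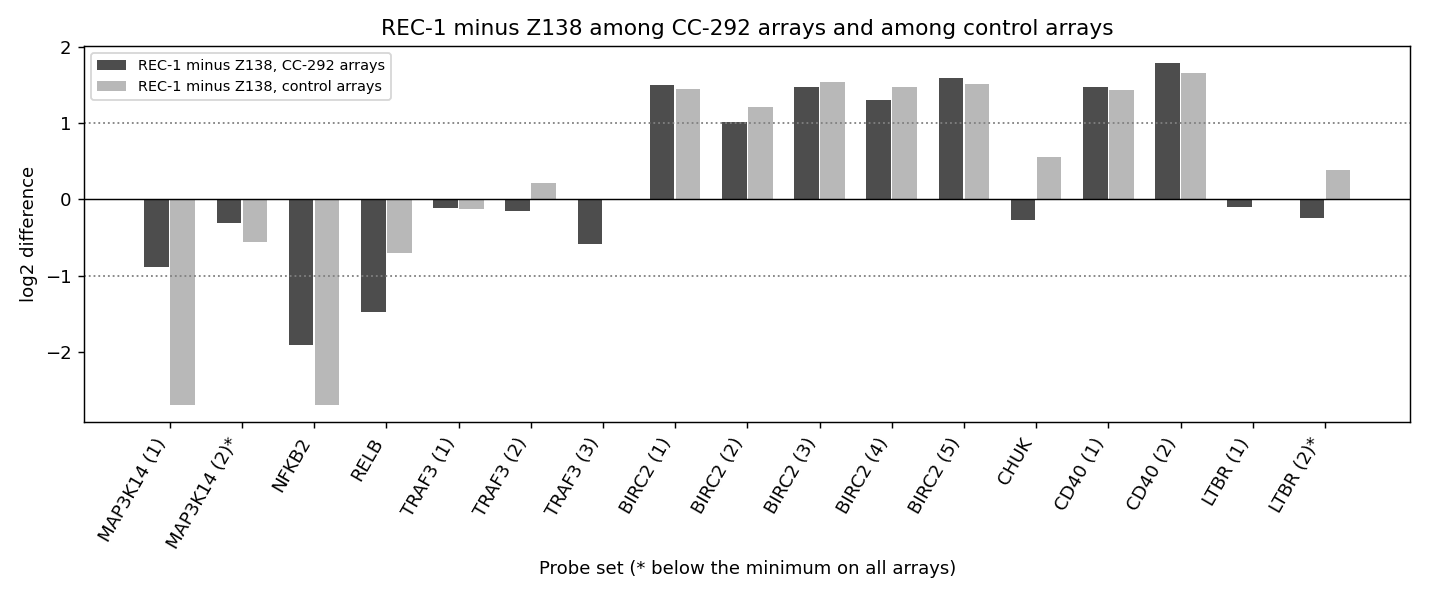
REC-1 minus Z138 on the log2 scale for each member probe set, among the CC-292 arrays (dark) and among the control arrays (light), with dotted lines at a 2-fold difference. The MAP3K14 (1) bar is -0.89 with CC-292 and -2.69 in the controls, while the BIRC2 and CD40 bars are above 0 for both pairs of arrays.

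In the same limma fit, the line difference averaged over both agents was called for 10 of 15 member probe sets, beside 40.9% of all measured probe sets. By gene, on the brightest probe set, it was called for 5 of 8 members, beside 41.9% of 10854 genes. The p-values rest on 2 cultures per line and measure only the spread between these arrays. NFKB2 reached the brightness minimum only in Z138, and MAP3K14 fell below it in the REC-1 control, so that the sizes of their folds are uncertain here too. As NFKB2 was measured through Z138 alone, the minimum itself favoured a line difference, and its call carries no weight. NFKB2 read 4.93-fold lower in REC-1 (log2 -2.30, SE 0.24, adjusted p = 0.0024 by limma), MAP3K14 3.47-fold lower (-1.79, SE 0.43, adjusted p = 0.027) and RELB 2.12-fold lower (-1.09, SE 0.23, adjusted p = 0.019). BIRC2 was 2.78-fold higher (1.47, SE 0.16, adjusted p = 0.0027 by limma) and CD40 2.74-fold higher (1.45, SE 0.16, adjusted p = 0.0028), and all 5 BIRC2 and both CD40 probe sets were called. TRAF3 (adjusted p = 0.59 by limma on its brightest probe set), CHUK (0.67) and LTBR (0.81) were not called. Beside this contrast, SDC1 and the ACTB 3' minus 5' difference given above also differed between the lines, while that of GAPDH was nearly equal. The summed linear signal of the 10 T, NK and myeloid markers was 149 and 154 in REC-1 against 195 and 198 in Z138. Only 3 of the 10 were measured, and these did not run 1 way. With CC-292 and in the control, CD3G read 4.46 and 4.22 in REC-1 against 6.07 and 5.96 in Z138. NCAM1 read 4.04 and 4.34 against 4.77 and 4.47. CD3D was higher in REC-1, at 4.81 and 4.57 against 3.64 and 3.99. The part of SDC1, ACTB and these markers in the result was not tested.

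Ligands and other receptors that feed the pathway were taken from a list of 17 genes, of which 8 were measured. With CC-292 4 of 8 were below 0 in REC-1 (median 0.02), beside 55.0% of all probe sets, and 7 of 8 in Z138 (median -0.13), beside 46.7%. These counts include genes with readings below the brightness minimum, TNFRSF12A in both lines, TNFRSF17 in REC-1 and TNFRSF13C in Z138. For those genes they give no direction. The lymphotoxin gene LTA was at -1.10 in REC-1 and -0.52 in Z138, on 1 measured probe set of 2. All 4 of its readings lay below the highest nonspecific control probe set of their array, so that the size of these differences is uncertain. Its partner LTB, the ligand subunit for LTBR, was at 0.48 in REC-1. TNFRSF12A, the receptor for TWEAK, reached the brightness minimum only in the Z138 control (4.67), so that no direction is read from it. The BAFF receptor gene TNFRSF13C read 5.11 with CC-292 and 5.00 in the control of REC-1, and lay below the minimum in Z138. Between the lines, 4 of 8 were called higher in REC-1 by limma and 1 lower, beside the 41.9% of genes called in either direction. TNFRSF13C, among those called higher, was measured through REC-1 alone, which favours such a call. In the controls LTB stood 4.30 higher in REC-1 (9.32 in REC-1 against 5.02 in Z138, SD 0.77 over 2 probe sets). TNFRSF13B, which encodes the BAFF and APRIL receptor TACI, stood 2.08 higher (SD 0.97 over 4). TNFRSF1B, which encodes the TNF receptor TNFR2, stood 1.46 higher (SD 0.29 over 3). TNFRSF17, which encodes the plasma-cell receptor BCMA, stood at -5.64 (4.69 in REC-1 against 10.33 in Z138). The Z138 control readings of LTB and TNFRSF1B (5.83) and the REC-1 control reading of TNFRSF17 lay below the highest nonspecific control probe set. The size of these 3 gaps is therefore uncertain.

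Of 18 other kinases, adaptors and ubiquitin factors, 16 were measured. Their medians were -0.09 in REC-1 and 0.07 in Z138, and none differed 2-fold with CC-292. TRAF5, an adaptor that binds CD40 and LTBR, was at 0.85 in REC-1, while both Z138 readings, 3.60 with CC-292 and 3.30 in the control, lay below the brightness minimum. IKBKB, which encodes the IKK-beta kinase of the classical pathway, was at 0.69 in REC-1 on its brightest probe set, with an SD of 0.42 over 11 measured probe sets. IKBKG, which encodes the scaffold NEMO, was at 0.58 in Z138 (SD 0.41 over 5). Its Z138 readings, 5.55 with CC-292 and 4.97 in the control, lay below the highest nonspecific control probe set. On the lower side in REC-1 were the IKK-related kinase gene IKBKE at -0.58 (SD 0.50 over 2 probe sets) and the TRAF-binding adaptor gene TANK at -0.40 (SD 0.32 over 4). The REC-1 readings of IKBKE, 5.60 with CC-292 and 6.18 in the control, also lay below the highest nonspecific control probe set. TRAF5 also read 6.94 in the REC-1 control against 3.30 in the Z138 control, with an SD of 1.52 between its 2 measured probe sets for this difference, and the size of the gap is uncertain as the Z138 reading is near the nonspecific median. The ubiquitin ligase gene PELI1 was at 1.39 between the control arrays, TANK at -0.88 and the cullin gene CUL1 at -0.62. By limma 3 of 16 were called higher in REC-1 and 3 lower, a share close to the 41.9% of genes called in either direction. TRAF5, among those called higher, was measured through REC-1 alone, which favours such a call.

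All 9 other NF-kB and IkB genes were measured, and all 9 were below 0 with CC-292 in REC-1 (median -0.27), and 6 of 9 in Z138 (median -0.15). Over all measured probe sets 55.0% were below 0 in REC-1 (median -0.03) and 46.7% in Z138 (median 0.02). The counts of genes rest on the brightest probe set of each. Some differences were smaller than the SD between probe sets of that gene, as for REL in REC-1, at -0.19 (SD 0.23 over 2). The IkB-like genes NFKBID and BCL3 were at -0.83 and -0.50 in REC-1, and at -0.48 and 0.51 in Z138. BCL3 rests on 1 measured probe set of 4. The probe sets used for NFKBID and BCL3 both read below the highest nonspecific control probe set on each array. The size of their differences is therefore uncertain. REL, the c-Rel subunit gene, read 8.83 in the REC-1 control against 7.25 in the Z138 control, and the inhibitor gene NFKBIA 9.20 in the REC-1 control against 10.47 in the Z138 control. By limma 2 of 9 were called higher in REC-1 and 1 lower, no larger a share than the 41.9% of genes called in either direction.

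Of 15 genes known as targets of RelB-p52 or of NF-kB in general, 10 were measured. The stromal chemokine genes CXCL12, CXCL13, CCL19 and CCL21 and the adhesion gene MADCAM1, classical outputs of the pathway in lymphoid stroma, were not measured in these B-cell lines. With CC-292 9 of 10 were below 0 in REC-1 (median -0.14), beside 55.0% of all probe sets, and 7 of 10 in Z138 (median -0.08), beside 46.7%. The exception in REC-1 was the homing receptor gene CCR7, at 0.96 in REC-1, where its control reading of 4.63 lay just below the brightness minimum, and -0.54 in Z138. TNFAIP3, which encodes the A20 inhibitor, and the activation marker gene CD83 were at -0.75 and -0.74 in REC-1. The B-cell follicle homing receptor gene CXCR5 was measured through REC-1 alone. Its Z138 readings, 3.26 with CC-292 and 4.17 in the control, lay below the brightness minimum, so that no difference is read from them. The Z138 count above was taken with CXCR5, and with BCL2A1 and EBI3, which also had readings below the minimum there. Between the control arrays CXCR5 read 10.60 in REC-1 against 4.17 in Z138, with an SD of 2.55 between its 2 measured probe sets for this difference, and CCR7 4.63 in REC-1 against 9.80 in Z138. By limma 4 of 10 were called higher in REC-1 and 3 lower, beside the 41.9% of genes called in either direction. Those called higher include CXCR5 and BCL2A1, both measured through REC-1 alone (BCL2A1 at 2.91 and 2.83 in Z138). For such genes the brightness minimum itself favours a line difference, so that their calls carry no weight.

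**Figure D4:**
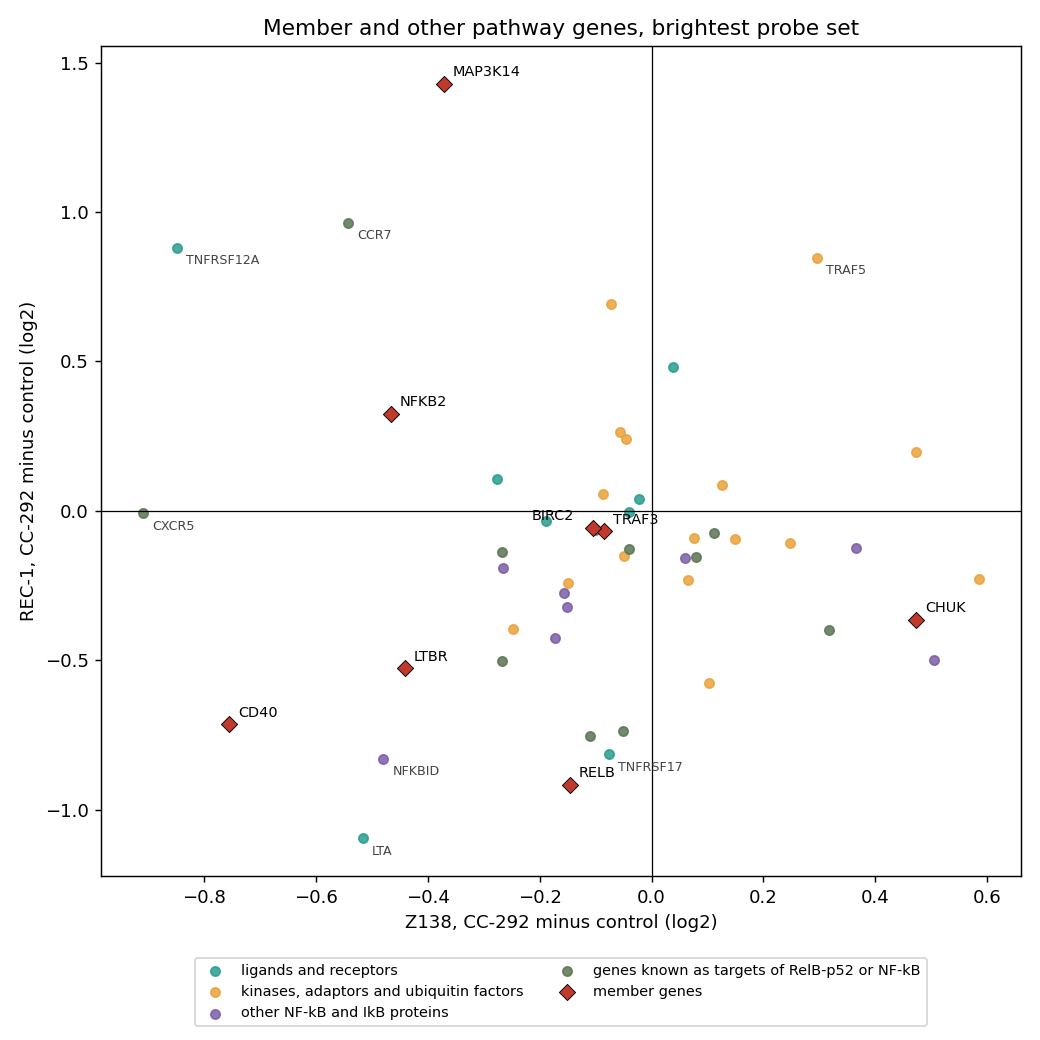
CC-292 minus control in REC-1 (vertical) against Z138 (horizontal), log2, for the brightest probe set of the 8 member genes (red diamonds) and of the measured genes of the 4 lists (circles). MAP3K14, NFKB2, CCR7 and TNFRSF12A lie above 0 in REC-1 and below 0 in Z138, each with a reading below the brightness minimum in REC-1, and CD40, LTBR, RELB and LTA lie below 0 in both.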

How the data were processed

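Total RNA of 4 cultures was labelled from 150 ng and hybridised to Affymetrix arrays, per the labels' protocols. The authors deposited log2 signals per probe set, made with RMA and Affymetrix Expression Console 1.1, per the submitters' processing notes. The log2 scale was inferred from their range (2.18 to 14.26). Their settings are not given in the sources read, and RMA usually equalises the arrays, so that a shift of most genes would not show.

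Of 49386 probe sets, 93 are controls, 45253 have 1 symbol, 1327 several and 2713 none. Entrez identifiers were used to check the symbols against RefSeq GRCh38.p14 (45178 matched, none changed). Depth has no counterpart on arrays, and 1 array per group limits the precision. Groups come from the sample titles.

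Differences were taken per probe set. Average effects were fitted on all 27763 measured probe sets with limma 3.58.1 (lmFit and eBayes, covariates line and agent, 1 residual degree of freedom) in R 4.3.3, with Benjamini-Hochberg adjustment, and tested on simulated data. Python 3.11.15, pandas 2.3.3, numpy 2.4.6 and matplotlib 3.10.9 did the rest. Named genes are all members and, per list and comparison, up to 4 of the largest differences on the brightest probe set. The members and lists were chosen with earlier results of these data known. Alternatives were other normalizations, brightness minima, fold thresholds, probe-set summaries, an intensity trend and no covariate.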

Additional observations from a re-analysis of the deposited data

Results flagged for a closer look

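Member probe sets whose CC-292 difference ran opposite ways in the 2 lines were taken up here. With 1 array per group the difference between lines was not tested, and 52.2% of all measured probe sets ran opposite ways, against 5 of 15 member probe sets. For MAP3K14 the REC-1 minus Z138 difference of the effects was 1.80, on 1 of its 2 probe sets. For NFKB2 it was 0.79 and for CHUK -0.84, each on a single probe set. Both REC-1 readings of NFKB2 lay below the brightness minimum, so that no direction is read from them. All 4 CHUK readings lay below the highest nonspecific control probe set of their array. For 2 of the 5 BIRC2 probe sets the difference of the effects was -0.20 and -0.077, less than the pooled SD of 0.40 between probe sets of a gene for this quantity.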

How the results depend on the processing

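The line covariate sets each CC-292 array against the control of its line. The labels give no replicate numbers for any other pairing, and with 1 array per group none could be left out. Centring, quantile normalization and cyclic loess changed no member call, and MAP3K14 in REC-1 stayed between 1.43 and 1.45. The average CC-292 effect gave 0 calls among all probe sets in each of the 9 fits, and no member was called. With an intensity trend the adjusted p of CD40 was 0.63 by limma. Without a brightness minimum 274 probe sets differed 2-fold in Z138 (161 as reported). At the 70th percentile (6.61) the counts were 122 in REC-1 (510 as reported), 46 in Z138 and 4247 between controls (6465 as reported). A 1.5-fold threshold gave 2822, 1514 and 12154 probe sets in REC-1, in Z138 and between controls, with 3 member probe sets in REC-1 and 1 in Z138. A 3-fold threshold gave 33, 4 and 2852, with 0 members in REC-1 and 3 between controls. With the brightest probe set per gene, fewer features by construction, the counts were 176, 63 and 2643, with 4 of 8 members between controls, and limma called 4855 genes and 5 of 8 members between lines. With probe sets averaged per gene the counts were 70, 22 and 2047, with 0 members in REC-1 and 4 between controls. The call of MAP3K14 in REC-1 thus ends when its dim second probe set is averaged in. Signal over background is a limit for NFKB2, CHUK and LTBR on all 4 arrays, for MAP3K14 in REC-1 and for the dimmest BIRC2 probe set in Z138, which read below the highest nonspecific control probe set of their array.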
